A study of Caenorhabditis elegans with 2 samples.

Results

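The X chromosome of Caenorhabditis elegans holds 276 of the 612 annotated nuclear tRNA genes (45.1%) on 17.7% of the nuclear sequence, a density of 15.6 tRNA genes per Mb against 4.07 on the autosomes. Occupancy of these 276 genes by SNPC-4 was read from the authors' peak lists. Members were all genes of tRNA biotype on X in the WBcel235 annotation (ce11), and no member was left out. A gene was counted as bound in a list when a peak summit fell no more than 300 bp from the annotated 5′ end of the gene, and its value was that of the strongest such peak. The other 336 tRNA genes, 265 on chromosomes I, II, III and V and 71 on chromosome IV, served for comparison.

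Chromatin immunoprecipitation followed by sequencing (ChIP-seq) of SNPC-4 was done in 1 group with 2 biological replicates of whole young adult worms of pooled sex, and there was no other genotype, treatment or time. All worms were of strain OP179, unc-119(ed3) III; wgIs179, whose insertion targets snpc-4, and the protein carried eGFP. The labels name snpc-4 as the target of the antibody and do not give the antibody itself, nor whether untagged SNPC-4 was still made. In whole worms, strong binding in few cells and weak binding in many cannot be told apart, and no single tissue can be named. The labels point to a control, which was not analysed here, and read depth is unknown.

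SNPC-4 is the DNA-binding part of SNAPc, the small nuclear RNA activating complex, which sits on the proximal sequence element upstream of small nuclear RNA genes and recruits RNA polymerase II or III. In this species it is also known for its place at the piRNA gene clusters of chromosome IV. Most tRNA genes are read by RNA polymerase III from promoters inside the gene, the A box near the 5′ end and the B box in the part that becomes the T loop, which are bound by TFIIIC. A run of T residues after the gene ends transcription. Each tRNA isotype, named for the amino acid it carries, is made from many gene copies in the worm, and many copies are identical.

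The sequences of 4 X tRNA genes with an optimal peak are shown first, so that the internal promoter can be seen. They are given 5′ to 3′ in the sense of the tRNA, from the RefSeq genome of build WBcel235, and capitals mark the B box core, searched as GTTCNANNC. These genes were chosen because they stand among the 12 strongest X tRNA peaks and carry different amino acids.
R11.t1 (Tyr, X:16209769-16209852, minus strand): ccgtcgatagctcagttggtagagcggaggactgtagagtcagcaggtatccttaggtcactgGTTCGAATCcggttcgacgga
R04A9.t1 (Gln, X:410391-410462, plus strand): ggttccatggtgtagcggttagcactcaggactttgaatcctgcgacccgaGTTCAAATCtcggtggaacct
C06G1.t1 (His, X:16634830-16634901, minus strand): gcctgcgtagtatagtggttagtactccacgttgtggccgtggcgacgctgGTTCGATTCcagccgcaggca
ZK563.t1 (Thr, X:3371422-3371493, minus strand): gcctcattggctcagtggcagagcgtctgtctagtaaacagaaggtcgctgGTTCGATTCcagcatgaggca
The core was found on the sense strand in 268 of 276 X tRNA genes (97.1%), and searching the reverse strand too added no gene. It was found in 28 of the 30 with an optimal peak, and in 319 of the 336 other tRNA genes (94.9%). Searched on both strands, the first 72 bp of X protein-coding genes, the median length of an X tRNA gene, held it in 2.78% of 2731 cases. It began at a median of position 52 of the tRNA gene, counted from the 5′ end. A run of TTTT lay within 30 bp downstream in 273 of 276 X tRNA genes, all 30 with an optimal peak included, and after the 3′ ends of 44.7% of X protein-coding genes. The core and the T run were therefore present at nearly every member, whether or not it had a peak. The core was kept from 4 strings tried with the peaks known, and a match is a description of letters, not a site.

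SNPC-4 peaks lay near a minority of X tRNA genes in the stringent list and near most of them in the permissive lists. The optimal list, which the authors derived by the irreproducible discovery rate (IDR), held 1781 peaks. At tRNA genes, signal and rank in it equalled those in the relaxed list of the pooled reads. Genes whose pooled peak ranked just below 1781 had no optimal peak. Membership therefore followed pooled signal, and does not mean that a peak was strong, or present, in each replicate. In the optimal list, 30 of 276 X tRNA genes (10.9%, 95% Clopper-Pearson interval 7.45 to 15.2) had a peak. Over all 46890 annotated nuclear genes the share in this list was 5.86%, and over X protein-coding genes it was 2.34% (64 of 2731). The relaxed lists were deposited as peaks and background together, as input to IDR, and in the relaxed list of the pooled reads 184 X tRNA genes (66.7%, interval 60.8 to 72.2) had a peak, against 43.8% of all genes and 20.9% of X protein-coding genes. In replicate 1 it was 172 X tRNA genes (62.3%), against 35.4% of all genes. Replicate 2 gave 202 (73.2%), against 43.6% of all genes. The relaxed list of replicate 1 held 20730 peaks, and those of replicate 2 and of the pooled reads held 30000 each. Shares in lists of unlike length are not directly comparable. A peak found only in a relaxed list can be background. Without replicate 2, which means the 1781 strongest peaks of replicate 1, the share with a peak fell to 6.16%, and without replicate 1 it was 11.2%. These intervals cover the counting of genes only.

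The 30 genes lay beside 26 distinct peaks, since 4 peaks were each shared by a pair of tRNA genes whose contributions cannot be separated. These 26 made up 14.1% of the 184 optimal peaks on X, and near tRNA genes on the autosomes other than IV the corresponding share was 4.76% (42 of 883 peaks). Such percentages of peaks depend on how many peaks of any kind a chromosome has, and do not measure how often tRNA genes were bound. Counted by gene, X was the lower of the 2, at 30 of 276 tRNA genes (10.9%) against 46 of 265 (17.4%). That difference did not pass when tested, as given below. Of the 26 peaks, 18 also had the 5′ end of an annotated non-coding RNA gene within reach, 2 had that of a protein-coding gene (egl-17 and C28G1.2), and 7 had none but tRNA, with C28G1.t1 near both a non-coding and a protein-coding 5′ end. Summits at 24 of the 26 belonged to peaks of the list's usual width, 324 bp, and the 2 strongest were narrower, 109 and 115 bp.

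X tRNA peaks stood in the lower part of the optimal list. Signal, the authors' value for a peak and unscaled between lists, ran from 31.1 to 78.0 with ranks from 320 to 1779 of 1781, and 8 of 26 peaks (30.8%) were in the stronger 50%. Among tRNA peaks of the autosomes except IV it was 19 of 42 (45.2%), also a minority. The weakest peak of the whole list had a signal of 31.1 and the strongest reached 1801. The other 158 optimal peaks on X had a median signal of 43.4 and a maximum of 715. Optimal values were computed on pooled reads and have no replicate error of their own, so the value in each replicate's own list is given beside them.

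The strongest X tRNA gene was R11.t1, a tyrosine tRNA gene between protein-coding genes. Its signal was 78.0 in the pooled reads, 18.02 in replicate 1 and 57.7 in replicate 2, with the summit 36 bp upstream of the gene. M163.t2, a lysine tRNA gene (X:14478877-14478949, minus strand), had 67.7 pooled, 20.8 in replicate 1 and 48.7 in replicate 2. Both genes were in the strongest 1781 peaks of each replicate. C02D4.t1, an isoleucine tRNA gene (X:15297471-15297544, plus strand) inside an intron of the tyramine receptor gene ser-2 and on the opposite strand, had 54.3 pooled, 12.7 in replicate 1 and 37.2 in replicate 2. C33G3.t2, a lysine tRNA gene of another sequence (X:14063946-14064018, minus strand), had 50.9 pooled, 17.0 in replicate 1 and 34.1 in replicate 2. F52H2.t1, for aspartate (X:2553565-2553636, plus strand), in an intron of the amino acid transporter gene aat-3, had 45.2 pooled, 7.54 in replicate 1 and 40.6 in replicate 2. Each of these 5 genes had a higher signal in replicate 2 than in replicate 1, and the ratio between them was widest at F52H2.t1.

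The next peaks were closer together in signal and again mixed in isotype. T10B10.t1 and T10B10.t2, a divergent pair of identical glycine tRNA genes, shared a peak of 45.0 pooled, 12.9 in replicate 1 and 33.0 in replicate 2. H06A10.t1, for proline, had 44.7 pooled, 9.42 in replicate 1 and 33.6 in replicate 2. R04A9.t1, for glutamine, in an intron of ZK1193.2, had 44.2 pooled, 17.3 in replicate 1 and 26.4 in replicate 2. All of these were again higher in replicate 2. C06G1.t1, for histidine, had 39.98 pooled, 13.3 in replicate 1 and 27.7 in replicate 2. ZK563.t1, for threonine, had 39.5 pooled, 18.4 in replicate 1 and 18.1 in replicate 2, which ranked 893 and 2327 in their lists. F38G1.t2, for aspartate, in an intron of the fibroblast growth factor gene egl-17, had 39.3 pooled, 15.6 in replicate 1 and 25.7 in replicate 2. F01G12.t1, for glutamate, in an intron of sur-7, had 39.0 pooled, 12.6 in replicate 1 and 9.43 in replicate 2. The pooled order was thus not the order in either replicate, and ZK563.t1 and F01G12.t1 were the 2 genes of the 12 strongest peaks with the lower value in replicate 2.

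The edge of the optimal list ran through a dense part of the X tRNA values. F52E10.t5, for glutamate, lay just inside with 31.1 pooled, 17.1 in replicate 1 and 18.1 in replicate 2. F22F1.t7, for isoleucine, lay just outside with 30.8 pooled, 22.9 in replicate 2 and no peak in replicate 1. F43E12.t1, for threonine, followed with 30.4 pooled, 5.98 in replicate 1 and 18.6 in replicate 2, and F35A5.t1, for valine, with 30.2 pooled, 10.5 in replicate 1 and 19.4 in replicate 2. No gap in signal separates the 30 genes from those below. The 154 X tRNA genes with a pooled relaxed peak only ran from 3.31 to 30.8, with a median of 16.7.

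**Figure D1:**
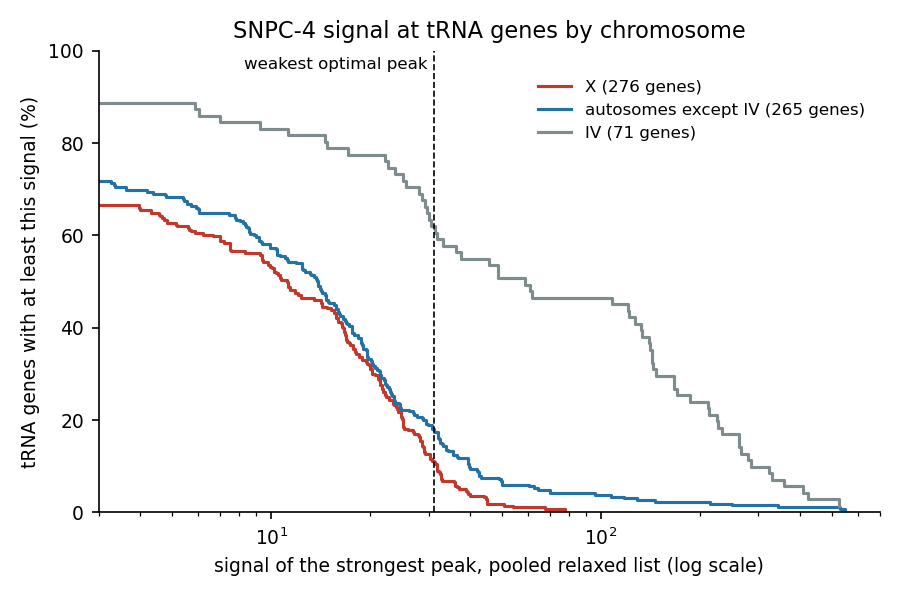
Share of tRNA genes (y axis, percent of all tRNA genes of a chromosome class) whose strongest peak in the pooled relaxed list reached at least a given signal (x axis, log scale), for X, for the autosomes except IV and for IV. At the weakest optimal peak (dashed line) the X curve stands at 10.9%, the autosome curve at 17.4% and the IV curve at 60.6%, and no X gene passes 78.0.

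The replicates ordered X tRNA genes only in part alike. A peak was present in both replicates' relaxed lists at 139 genes, in replicate 1 only at 33, in replicate 2 only at 63 and in neither at 41. These counts depend on list length, 20730 peaks in replicate 1 and 30000 in replicate 2. In none of the 4 lists was there a peak at 38 genes (13.8%). Across the 139 genes with a peak in both, Spearman's rho between the replicates' signals was 0.440 and Pearson's r of log2 signal was 0.488, as a description over genes that share libraries and in part share peaks. Replicate 2 had the higher value at 117 of 139, with a median ratio of 2.00, while the median signal of its strongest 1781 peaks was 1.55 times that of replicate 1. Of the 30 genes with an optimal peak, 29 had a relaxed peak in both replicates, and C25F6.t4 (lysine, 32.5 pooled, 30.8 in replicate 2) had one in replicate 2 only.

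A stricter look took the strongest 1781 peaks of each replicate, the length of the optimal list. Of the 26 distinct X tRNA peaks, 5 were matched in both of these lists, 5 in that of replicate 1 only, 14 in that of replicate 2 only and 2 in neither. The 5 peaks matched in both are those of R11.t1, M163.t2, C33G3.t2, R04A9.t1 and F38G1.t2, and they leave 1.81% of X tRNA genes. Among genes matched in replicate 1 only, the highest signals in that replicate were 19.7 at ZK678.t1 (leucine), 18.4 at C11G10.t1 (arginine, in an intron of the innexin gene unc-7) and 18.4 at ZK563.t1. Among those matched in replicate 2 only they were 40.6 at F52H2.t1, 37.2 at C02D4.t1 and 34.8 at C28G1.t1 (glutamate).

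**Figure D2:**
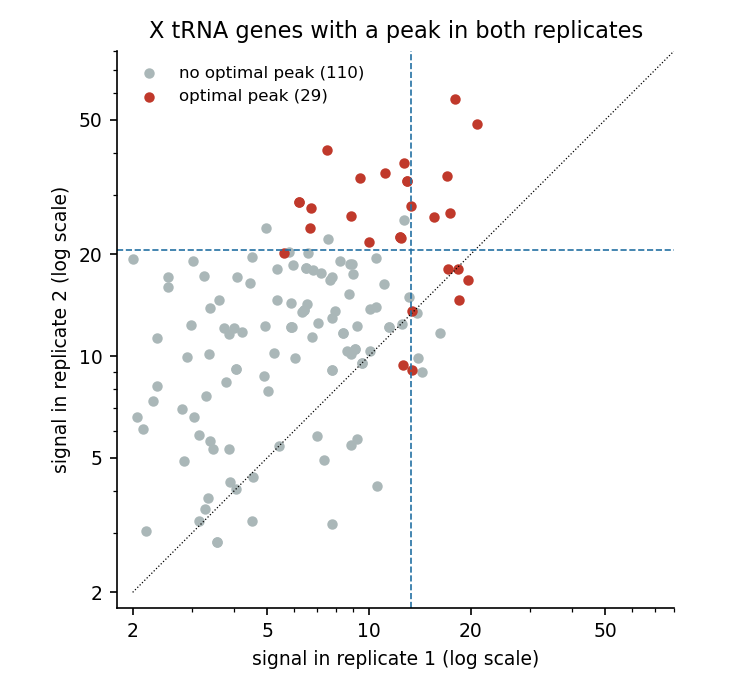
Signal in replicate 1 (x axis) and replicate 2 (y axis), both on log scales, for the 139 X tRNA genes with a peak in both relaxed lists, 29 of them with an optimal peak (red). Dashed lines mark the weakest of each replicate's strongest 1781 peaks and the dotted line marks equal values: 117 of 139 points lie above it.

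Compared with other chromosomes, X tRNA genes were bound less often than those of IV, and the difference from the remaining autosomes did not pass. An optimal peak was present at 43 of 71 tRNA genes on IV (60.6%), at 46 of 265 on I, II, III and V together (17.4%) and at 10.9% on X. The genes of IV were not alike along the chromosome. Most tRNA genes from B0513.t1 (IV:13870265) onward had an optimal peak, and most of those before C09B9.t1 (IV:5038920) had none. X was not tested against parts of IV, and place relative to the piRNA clusters was not examined. The 4 pooled autosomes were unlike each other, with 10.6% on I (7 of 66), 26.3% on II (15 of 57), 9.38% on III (6 of 64) and 23.1% on V (18 of 78). The share on X was therefore close to those of I and III and below those of II and V, and X was not tested against single autosomes other than IV. Against IV the odds ratio was 0.0794 (two-sided Fisher's exact test, adjusted p = 1.75e-16). Against the other autosomes it was 0.581 (exact test, p = 0.0352, adjusted p = 0.0880 over the 5 Fisher tests made). In the stronger 50% of the optimal list this comparison passed, with 3.26% of X genes against 8.30% (odds ratio 0.372, exact test, adjusted p = 0.0380). It passed in no other alternative, though the direction was the same in each. Adjusted p in those exact tests ran from 0.0540 with unique upstream sequence to 0.417 without replicate 1. Relaxed peaks of the pooled reads were found at 66.7% of X genes and 71.7% of those on the autosomes except IV (odds ratio 0.789, exact test, adjusted p = 0.248). The unit of these tests is a gene, not an animal, and identical or neighbouring genes are not independent.

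Signal was compared over the same classes. The 26 X peaks had a median signal of 36.8, the 42 tRNA peaks of the autosomes except IV had 41.1, and the 41 of IV had 147. X minus the other autosomes gave a difference of medians of -4.28, which did not pass (two-sided permutation test over peaks, 100000 resamples, p = 0.131). As a difference of means of log2 signal it was -0.59 on that scale and passed (permutation test, p = 0.0110). Without replicate 2, the difference of medians in the signal units of replicate 1 turned to 0.52, higher on X, and did not pass (permutation test, p = 0.679). At the upper end, 10 tRNA peaks on the autosomes except IV and 31 on IV exceeded the strongest X tRNA peak.

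Summits sat on the start of the tRNA gene. Over the 26 distinct peaks the median position was -6 bp from the 5′ end (negative is upstream), the quartiles were at -28.75 and 34.75 bp, and the range was from -126 to 117 bp. There were 22 summits within 60 bp of the end, and 11 lay over the gene itself. The 154 genes with only a pooled relaxed peak had a median of 9 bp and quartiles at -32 and 49.75 bp, so the weaker peaks were centred on the same place. Other tRNA genes had their optimal summits in a like place. Over genes, the median was -12.5 bp on X, -17.5 bp on the autosomes except IV and 15 bp on IV. Within 100 bp lay 76.7%, 78.3% and 95.3% of them. X protein-coding genes with an optimal peak were placed otherwise, with a median of -168.5 bp over 64 genes. Widest of the offsets among the distinct peaks was that of R04A9.t1, at -126 bp in the pooled reads, -196 bp in replicate 1 and -178 bp in replicate 2. At C06G1.t1 the 3 values were -25, -25 and -22 bp. No test was made of these positions, and the replicates often placed the summit at different points of the same peak.

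**Figure D3:**
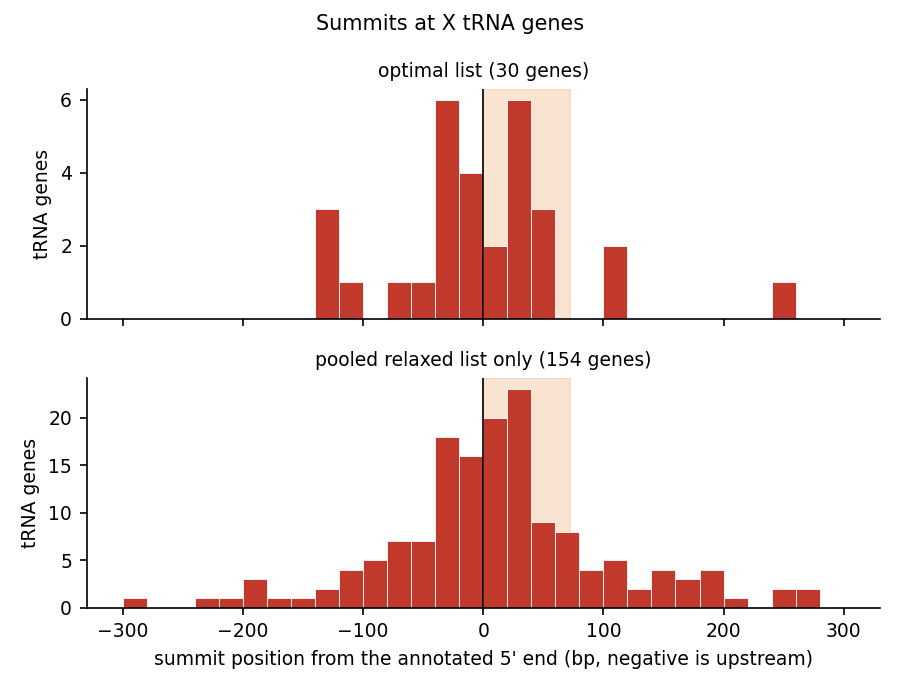
Position of the strongest summit relative to the annotated 5′ end (x axis, bp in bins of equal width, negative is upstream) against the number of X tRNA genes (y axis), for the 30 genes with an optimal peak and the 154 with a pooled relaxed peak only. The shaded band is the median gene length of 72 bp. Both distributions are centred near 0, with medians over genes of -12.5 and 9 bp.

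Every one of the 20 named isotypes has genes on X, and 14 of them had at least 1 gene with an optimal peak. Proline led by count with 5 of 20 genes (25%, interval 8.66 to 49.1), followed by glutamate with 4 of 23, lysine with 3 of 18, glycine with 3 of 20 and arginine, the isotype with most X genes, with 3 of 27. Aspartate (2 of 12), isoleucine (2 of 13) and threonine (2 of 14) came next. Glutamine, histidine, leucine, phenylalanine, serine and tyrosine had 1 gene each. These counts and the interval treat genes that share a peak as separate. For proline, F46G11.t1 shared a peak with F46G11.t2, and C16B8.t2 with C16B8.t3. For glycine, T10B10.t1 shared one with T10B10.t2, and for arginine T06H11.t2 with T06H11.t3. The 4 glutamate genes had separate peaks. The strongest gene was T06H11.t2 for arginine (36.01), F32A6.t1 for phenylalanine (32.8), K02A4.t1 for serine (31.8) and ZK678.t1 for leucine (37.0), and the other isotypes were led by genes described above.

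No optimal peak was found at X genes for alanine (13 genes), valine (14), methionine (8), cysteine (7), asparagine (6) or tryptophan (5). For alanine the interval of 0 of 13 reaches up to 24.7%. On the autosomes except IV an optimal peak was present at 7 of 15 alanine, 3 of 11 valine, 2 of 11 methionine, 2 of 6 cysteine, 3 of 14 asparagine and 0 of 3 tryptophan genes. Of the 7 alanine genes, B0491.t1, B0491.t2 and Y38E10A.t1 had their summits 227, 197 and 232 bp upstream, the first 2 on a shared peak. Glutamate went the other way, with 0 of 13 genes there and 4 of 23 on X. The relaxed list did hold peaks at these isotypes: 12 of 14 valine genes, with signals up to 30.2, and 6 of 13 alanine genes, with signals up to 28.6. Tryptophan genes were the weakest, with 2 of 5 in the pooled relaxed list and a highest value of 7.53. Isotypes were not tested against each other, and their intervals overlap. The isotype of 3 X genes was undetermined in RefSeq, and none of them had an optimal peak.

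**Figure D4:**
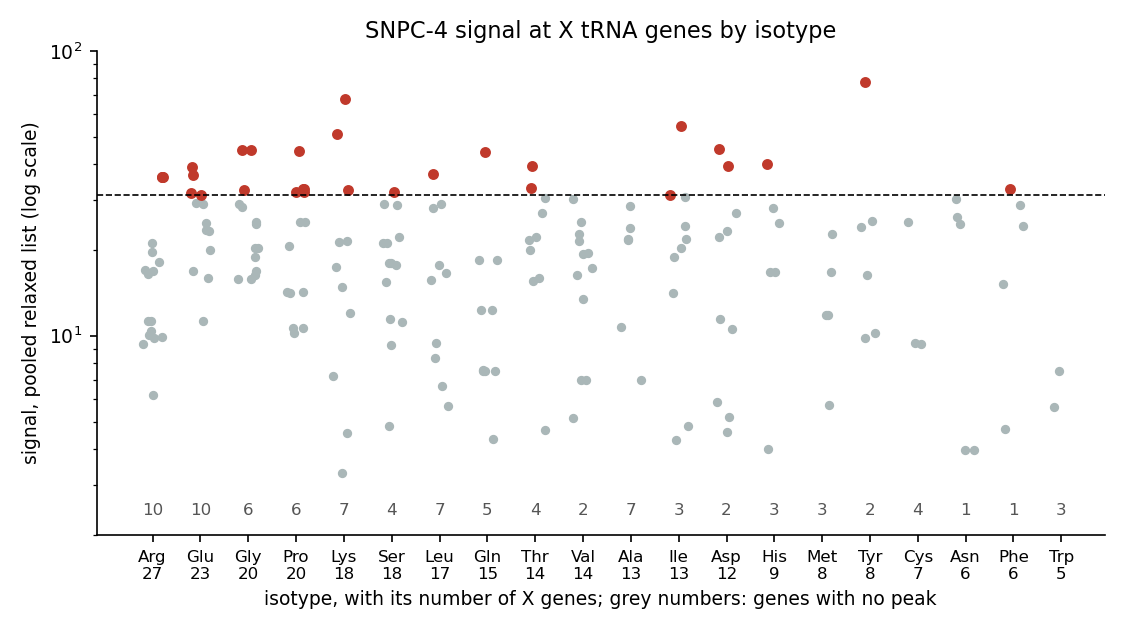
Signal of the strongest pooled relaxed peak (y axis, log scale) at each X tRNA gene, by isotype (x axis, with the number of X genes under each name and, in grey, the number with no peak). Red points have an optimal peak and the dashed line is the weakest optimal signal. The 3 genes of undetermined isotype are not drawn. Tyrosine and lysine hold the highest values, 78.0 and 67.7.

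Intronic and intergenic X tRNA genes did not differ in a way that passed. Of 95 intronic X tRNA genes 14 (14.7%, interval 8.30 to 23.5) had an optimal peak, and of 180 intergenic ones 15 (8.33%, interval 4.74 to 13.4), with an odds ratio of 1.90 (two-sided Fisher's exact test, adjusted p = 0.245). This ratio depended on the replicate. It was 5.06 without replicate 2 (exact test, adjusted p = 0.00633) and 0.941 without replicate 1. Within introns, 9 of 45 genes on the strand opposite to the host gene had an optimal peak and 5 of 50 on the same strand, a difference not tested. Hosts of genes with a peak included unc-58, a potassium channel gene, which holds the pair T06H11.t2 and T06H11.t3, and sto-2, a stomatin gene, which holds F32A6.t1. C28G1.t1, the single X tRNA gene that overlaps a protein-coding exon, had a peak of 36.6 (11.1 in replicate 1, 34.8 in replicate 2), which also lay near the 5′ end of its host C28G1.2.

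Many X tRNA genes lie in tight groups, in which neighbouring 5′ ends are at most 1000 bp apart: 131 genes in 53 groups, 39 of them pairs. An optimal peak was present at 11 of the 131 (8.40%) and at 19 of the 145 single genes (13.1%), an odds ratio of 0.608 that did not pass (exact test, adjusted p = 0.248). Relaxed peaks of the pooled reads were present at 65.6% and 67.6% of them, with median signals of 15.8 and 21.8. In the relaxed list of replicate 1 the shares were 54.2% (interval 45.3 to 62.9) and 69.7% (interval 61.5 to 77.0), and in that of replicate 2 they were 70.2% and 75.9%. These differences were not tested. The 4 groups of 5 or 6 genes held 22 genes, none with an optimal peak and 12 with a pooled relaxed peak. In the group of 5 arginine and cysteine genes at K01A12, each replicate's list had a peak at 4 genes and the pooled list at none. Only 2 groups of 3 or more had an optimal peak, those at R11 and C16B8.

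The group at R11 holds 4 tyrosine tRNA genes with the same 84 bases and 1 annotated intron each, and they differed in signal. R11.t1 had 78.0, R11.t4 had 10.2 pooled (2.84 in replicate 1, 4.89 in replicate 2), R11.t3 had 4.001 in replicate 2 alone, and R11.t2 had no peak in any list. The 60 bases upstream of each gene, up to its first base, are shown because the genes themselves are identical and no upstream 36-mer is found elsewhere in the genome.
R11.t1 upstream: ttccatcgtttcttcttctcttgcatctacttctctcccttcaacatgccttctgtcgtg
R11.t2 upstream: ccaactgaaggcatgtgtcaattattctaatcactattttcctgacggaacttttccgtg
R11.t3 upstream: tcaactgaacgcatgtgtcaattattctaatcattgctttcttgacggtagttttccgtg
R11.t4 upstream: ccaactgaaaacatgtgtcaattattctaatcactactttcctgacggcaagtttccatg
Compared without gaps, the upstream bases of R11.t2, R11.t3 and R11.t4 matched each other at 50 to 53 of 60 positions. R11.t1 matched the others at 19 to 21. The gene with the strong peak was thus the one whose upstream bases were unlike the rest, in a set of 4 genes picked for having a peak, and no test was made.

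At C16B8 the gene sequences differ as well. Capitals here mark bases that differ from C16B8.t1, and positions count from 1 at the 5′ end.
C16B8.t1: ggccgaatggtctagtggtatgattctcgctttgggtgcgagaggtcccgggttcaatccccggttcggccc
C16B8.t2: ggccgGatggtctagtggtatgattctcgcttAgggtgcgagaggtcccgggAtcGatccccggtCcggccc
C16B8.t3: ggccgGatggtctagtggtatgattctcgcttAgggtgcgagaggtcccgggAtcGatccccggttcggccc
C16B8.t2 differs by A6G, T33A, T53A, A56G and T66C, and C16B8.t3 by the first 4 of these. The T53A change falls in the B box core, so C16B8.t2 and C16B8.t3 are the 2 genes with an optimal peak that lack the searched letters. They share a peak of 31.9 pooled, 12.3 in replicate 1 and 22.5 in replicate 2, with its summit 34 bp into C16B8.t2. C16B8.t1, which has the core, stood at 20.6 pooled, 3.77 in replicate 1 and 8.40 in replicate 2. The peak also lies near the 5′ end of the non-coding RNA gene C16B8.8.

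Identical tRNA genes could be compared across the genome, since 219 of the 276 X genes have an exact copy elsewhere and the 276 genes hold 106 distinct sequences. The 26 sequences with 4 or more copies on X covered 186 genes, 23 of them with an optimal peak. In 15 of the 26 at least 1 X copy had an optimal peak, in 11 none had, and in none did all copies have one. Proline copies identical to H06A10.t1 were the most numerous on X: 3 of 13 had an optimal peak, with signals up to 44.7, F46G11.t1 and F46G11.t2 on a shared one. On the autosomes except IV 1 of 10 copies did, T23F1.t2 (70.3), on a peak shared with the lysine gene T23F1.t1. The single copy on IV stood at 410. Lysine copies identical to M163.t2 reached 67.7 on X (1 of 10 with an optimal peak), 529 on the autosomes except IV (3 of 12) and 324 on IV (2 of 3). Other sequences had their highest copy on X when set against the autosomes except IV. Glycine copies identical to T10B10.t1 reached 45.0 on X and 23.2 there (2 of 11, on a shared peak, and 0 of 13 with an optimal peak). On IV these glycine copies reached 263, with 4 of 5 at an optimal peak. Glutamate copies identical to F01G12.t1 reached 39.0 on X and 22.4 on the autosomes except IV (2 of 12 and 0 of 8), with no copy on IV. Among the 22 of these 26 sequences with a pooled relaxed peak in both places, the highest copy was on X for 7 and on the autosomes except IV for 15. The arginine sequence of T06H11.t2 exists on X alone, in 10 copies from 9.79 to 36.01 with 2 at an optimal peak, and the leucine sequence of C04E7.t1, also on X alone, had none in 9 copies and a maximum of 28.1.

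Over the 21 sequences found on both X and IV, 16 of 110 X copies (14.5%, interval 8.55 to 22.5) and 35 of 49 IV copies (71.4%, interval 56.7 to 83.4) had an optimal peak, with median pooled signals of 20.3 and 132. Over the 40 sequences found on X and on the autosomes except IV, it was 20 of 182 X copies (11.0%) and 34 of 174 (19.5%), with medians of 20.3 and 19.0. These counts were drawn up after the shares by chromosome were known and were not tested. Copies on IV were not split by their place on the chromosome. Reads from inside identical genes cannot be placed uniquely if they are short: in 222 X genes every 36-mer of the gene is found elsewhere. The read length was not given in the sources used here. Flanking sequence does separate most copies, and the share with an optimal peak was 11.1% among the 226 X genes with no upstream 36-mer found elsewhere and 10% among the other 50.

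**Figure D5:**
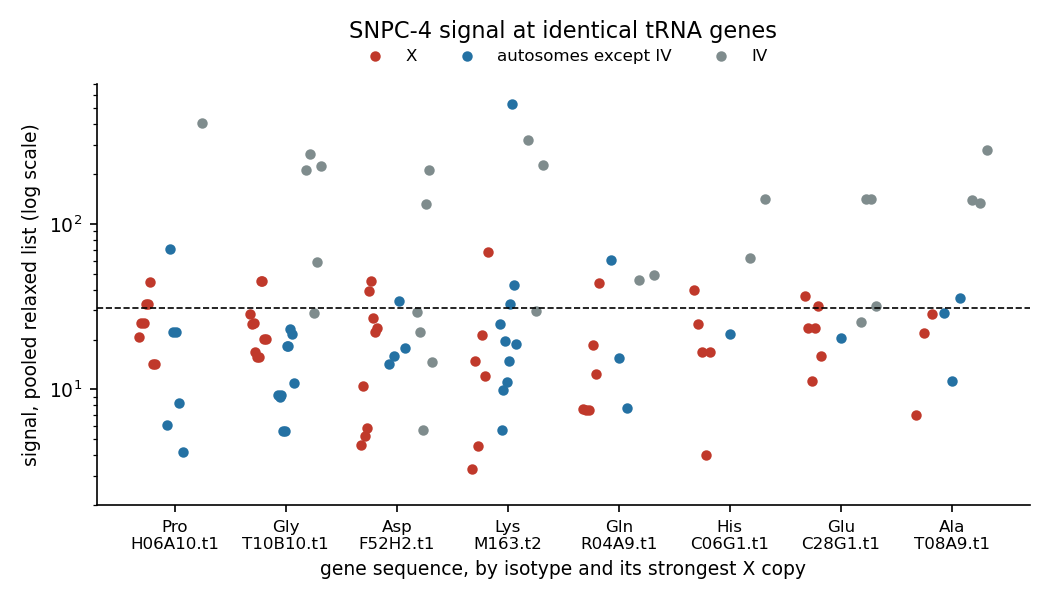
Signal of the strongest pooled relaxed peak (y axis, log scale) at identical copies of 8 tRNA gene sequences (x axis, named by isotype and strongest X copy) on X, on the autosomes except IV and on IV, for sequences with at least 7 X copies and 1 copy on IV. Copies with no peak are not drawn, and the dashed line is the weakest optimal signal. For proline the X copies reach 44.7 and the IV copy stands at 410.

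Along X, the share of tRNA genes with an optimal peak was counted in stretches of 1 Mb. Between 8000001 and 9000000 lie 51 tRNA genes, more than in any other 1 Mb stretch of the chromosome, and 1 of them (C28G1.t1) had an optimal peak, while 30 had a pooled relaxed peak. The next stretch, to 10000000, held 20 genes and none with an optimal peak. Between 15000001 and 16000000, 5 of 15 genes had an optimal peak and 14 a pooled relaxed one. Other stretches rich in tRNA genes varied, with 4 of 32 genes between 16000001 and 17000000 and 1 of 30 between 13000001 and 14000000. Between 14000001 and 15000000 it was 2 of 19. Optimal peaks of any kind numbered 7 between 8000001 and 9000000 and 20 between 15000001 and 16000000. The 2 counts did not always run together. Between 14000001 and 15000000 there were 23 peaks of any kind. Between 3000001 and 4000000 there were 6, and 3 of 9 tRNA genes had an optimal peak. The stretches were cut after values were seen and were not tested.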

How the data were processed

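Per the labels and the deposited file lists, the authors aligned each replicate to ce11 and called relaxed peaks for each replicate and for the pooled reads as input to IDR, from which the optimal list was derived. No source used here gives the aligner, the peak caller, the read length or the IDR threshold. Each deposited peak carries a signal value from the authors' caller, which is not scaled between lists, and the 4 ce11 lists were used in the narrowPeak column order. Lists on ce10 were not used. Library fragments measured 150 to 350 bp per the labels, and read depth is unknown, so intervals cover the counting of genes only.

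Genes came from Ensembl release 115 (WBcel235) and isotypes and sequences from RefSeq. For each tRNA gene the strongest summit within 300 bp of the 5′ end was taken. Summits of different lists within 200 bp counted as matched. The 36-mers of each gene and of 200 bp upstream were searched in the nuclear genome. Shares were compared by 5 two-sided Fisher's exact tests with Benjamini-Hochberg adjustment over those 5 at 0.05, and median signals by a permutation test with 100000 resamples (scipy 1.17.1, numpy 2.4.6, pandas 2.3.3, Python 3.11.15). The search for the strongest summit was checked on planted summits, and Fisher's exact test on fixed tables of counts. The permutation test had no such check. Alternatives were the distance, overlap of peak and gene, the stronger 50% of peaks, peaks matched in both replicates, unique upstream sequence, group definitions, strand of the host gene, the scale of the signal and each replicate alone. Each replicate is labelled a biological replicate, and with 1 group no test between samples was possible.

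Genes named were those of the 12 strongest distinct X tRNA peaks, members of groups of 3 or more with an optimal peak, the strongest gene of each isotype, the 3 strongest without an optimal peak and up to 3 genes found in the strongest 1781 peaks of 1 replicate only. C25F6.t4 and the genes named for identical copies and hosts were chosen after their values were seen. The members, lists and tests were chosen with earlier results of these data known. Comparisons of identical sequences, upstream bases and 1 Mb stretches were added later. For the B box 4 strings and for the A box 6 were tried, and the A box strings are not reported.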

Additional observations from a re-analysis of the deposited data

How the results depend on the processing

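No paired analysis was possible because the design has 1 group. Of 48 alternatives to results with a test, 42 kept the direction and the side of the threshold. The share of X tRNA genes with an optimal peak was 1.81% with peaks matched in both replicates, 3.26% in the stronger 50% of peaks, and from 6.16% to 11.2% with either replicate left out. X against the autosomes except IV passed in the stronger 50% of peaks only (odds ratio 0.372). With either replicate left out its odds ratio was from 0.659 to 0.733 and did not pass. The odds ratio of intronic against intergenic genes was 0.946 in the stronger 50% of peaks, and from 0.941 (without replicate 1) to 5.06 (without replicate 2), where it passed. The signal difference passed as means of log2 signal (-0.59 on that scale). As a difference of medians in each remaining replicate's own signal units it ran from -2.19 to 0.52, the second value without replicate 2. The median summit offset was -30 bp over the 5 peaks matched in both replicates, from -22 to 0 bp with either replicate left out, and 1.5 bp with unique upstream sequence. X against IV had an odds ratio of at most 0.120 in every alternative run. For these changes the cause was not tested. Read depth is unknown, so a missing peak may lie below detection.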

Other observations

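A heptamer upstream was noticed on reading the 60 bases before the X tRNA genes with an optimal peak. TGTCTAC was found there, on the sense strand, in 5 of the 30 X genes with an optimal peak, in 1 of 154 with a pooled relaxed peak only and in 0 of 92 with no pooled peak. On the autosomes except IV it was found in 2 of 265 tRNA genes, neither with an optimal peak, and on IV in 0 of 71. The same window of X protein-coding genes held it in 16 of 2731 cases (0.586%). On the reverse strand it was found at 0 of 276 X tRNA genes. It was chosen after the peaks were seen, from 4 strings tried, so these counts are a description and no test was made. The 6 X genes are shown with the heptamer in capitals, each line giving the 60 bases before the first base of the gene, on build WBcel235.
R04A9.t1 (Gln, X:410391-410462, plus strand): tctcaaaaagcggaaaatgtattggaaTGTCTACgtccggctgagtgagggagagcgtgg
F25F6.t1 (Glu, X:4444262-4444333, plus strand): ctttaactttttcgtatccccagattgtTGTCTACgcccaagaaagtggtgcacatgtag
C28G1.t1 (Glu, X:8836113-8836184, plus strand): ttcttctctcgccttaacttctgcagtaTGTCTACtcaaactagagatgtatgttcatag
T06H11.t2 (Arg, X:10132678-10132750, plus strand): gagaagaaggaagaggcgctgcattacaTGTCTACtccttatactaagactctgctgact
F17H10.t1 (Gly, X:13121261-13121331, minus strand): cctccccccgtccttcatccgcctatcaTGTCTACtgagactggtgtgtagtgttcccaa
ZK678.t1 (Leu, X:15742050-15742133, plus strand): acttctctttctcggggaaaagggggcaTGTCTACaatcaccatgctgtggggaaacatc
The heptamer began at position -33 in R04A9.t1 and at -32 in the other 5, and at -33 and -32 in the 2 autosomal genes. The exact search covered all 60 bases. The string was noticed in windows that all end at the gene, so its shared place on X is not independent of how it was found. F25F6.t1 and C28G1.t1 are identical glutamate genes with unlike flanks, and 2 of the 8 X copies of that sequence had an optimal peak, these 2. Pooled signals of the 6 genes ran from 29.1 at F17H10.t1 to 44.2 at R04A9.t1, and the 2 autosomal genes, Y82E9BR.t1 and W09D6.t1, stood at 11.0 and 22.1. Allowing 1 mismatch between -36 and -28 bp, the counts on X were 7 of 30, 10 of 154 and 4 of 92, on the autosomes except IV 3 of 46, 8 of 144 and 4 of 75, and on IV 4 of 43, 2 of 20 and 1 of 8. With a mismatch allowed the string was thus also found at tRNA genes without a peak.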
